A study of Mus musculus with 2 samples.

Results

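Transcript levels of 10 genes of fatty acid synthesis, elongation and desaturation were examined in mouse leukaemia cells from vehicle-treated and brequinar-treated animals. The set holds Acly, Acaca and Fasn, which build saturated fatty acids, the elongases Elovl1 and Elovl6, the desaturases Scd1, Scd2, Fads1 and Fads2, and the transcription factor gene Srebf1. These are 10 of the 45318 genes in the deposited count table, and all 10 were found by symbol. The genes were listed by name but chosen by a reading of these same 2 libraries, so their ratios are given as a description and no test rests on them.

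Both groups were blasts of strain C57Bl/6 labelled MLL/AF9-GFP, named for a fusion oncogene found in acute myeloid leukaemia, sorted for GFP from the bone marrow of leukaemic mice. The animals of one group received vehicle and those of the other brequinar, which blocks dihydroorotate dehydrogenase, an enzyme on the path to new pyrimidines. Each group is 1 RNA-seq library, so no difference has a replicate check or a p-value. The sources used here do not give the dose, the length of treatment, the age of the mice, the vector or promoter that carries the fusion, or how many animals each library holds.

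Cells make fatty acids from citrate that leaves the mitochondrion. Acly splits it to acetyl-CoA, Acaca carboxylates this to malonyl-CoA, and Fasn joins the units to palmitate. Elongases lengthen the product in the endoplasmic reticulum, Scd enzymes place the first double bond in a saturated chain, and Fads enzymes add further double bonds to dietary polyunsaturated chains on the way to arachidonate and related lipids. Transcription of most of these genes is driven by the membrane-bound factors that Srebf1 and Srebf2 encode, which are released when sterols are scarce, and Srebf1 is itself induced by liver X receptors (LXR).

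The libraries were of nearly equal depth, with 47935476 gene counts from vehicle and 47950714 from brequinar. Levels are CPM, counts divided by the library size after scaling by TMM, and a single count was worth 0.0202 and 0.0215 CPM. A gene was called higher or lower when its log2 ratio of brequinar over vehicle, formed with a prior count of 2, reached 2-fold. Genes entered when the average of both libraries reached 1 CPM. Intervals are exact 95% intervals for counting error only. The protocol names no molecular identifiers, so reads do not stand for independent molecules. The leukaemia genes Hoxa9 (238 CPM with vehicle and 231 with brequinar) and Meis1 (71.6 and 87.4 CPM) were expressed in both, while the progenitor markers Kit (180 and 76.5 CPM) and Cd34 (140 and 48.8 CPM) were lower and the myeloid integrin gene Itgam was higher (399 and 1234 CPM). Markers of other states were not equal: all 10 maturing neutrophil markers were called higher with brequinar (summed level 1407 and 23675 CPM), as were 8 of 10 resident macrophage markers (summed level of all 10: 640 and 926 CPM) and 11 of 12 listed erythroid markers (25.4 and 114 CPM). The macrophage sum was mostly Vcam1 (370 and 496 CPM) and Adgre1 (221 and 225 CPM), which were within 2-fold, while the 8 called ranged from Slc40a1 (42.0 and 134 CPM) to Mrc1 (0.647 and 9.99 CPM) in log2 ratio. Adipocyte markers summed to 1.496 and 4.241 CPM. Of these Fabp4 was called higher (33 and 134 counts), and Plin1 and Cidec had 0 counts in both libraries. Over all 11504 genes tested, 6.45% were called higher and 4.40% lower. The part of these other cells or states in the results below was not tested. In bulk RNA, fewer cells of a type and less RNA per cell cannot be told apart.

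All 4 desaturase genes and Elovl6 were lower in the brequinar library by more than 2-fold, whereas the chain-building genes and Srebf1 were lower by less than 2-fold and Elovl1 differed by a ratio of 1.040 (interval 1.001 to 1.081). Of the 10 genes 9 passed the filter. Among them 4 were at least 2-fold lower, against 4.40% of all 11504 genes tested, and none was at least 2-fold higher, against 6.45%. Fads2 fell below the filter and had a log2 ratio of -1.41. The median log2 ratio was -0.55 over the 9 genes that passed and -0.85 over all 10, beside 0.00 over all genes tested. The ratios ranged from -2.76 for Elovl6 to 0.06 for Elovl1. Because the genes were chosen from this contrast, the shares describe the set and nothing is read from them.

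**Figure D1:**
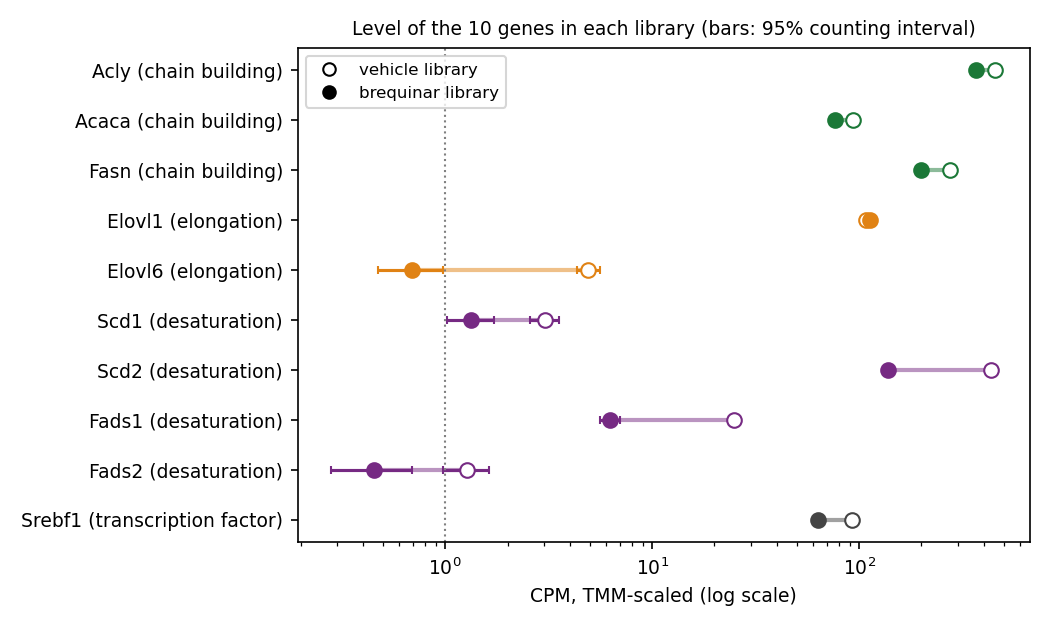
Level of each gene in the vehicle library (open circles) and the brequinar library (filled circles), in TMM-scaled CPM on a log axis, coloured by role, with 95% counting intervals and a dotted line at the filter of 1 CPM. Scd2 moves from 432 to 138 CPM and Elovl6 from 4.91 to 0.689 CPM, while the 2 circles of Elovl1 lie at 109 and 113 CPM.

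The chain-building genes were abundant in both libraries and differed little. Acly, which encodes ATP-citrate lyase, stood at 455 CPM with vehicle and 369 CPM with brequinar (22523 and 17131 counts), a level 1.23-fold lower (interval 1.21 to 1.26). Acaca, which encodes the cytosolic acetyl-CoA carboxylase, stood at 93.1 and 76.9 CPM and was 1.21-fold lower (interval 1.16 to 1.27). Fasn, which encodes the multifunctional fatty acid synthase, stood at 276 and 199 CPM and was 1.39-fold lower (interval 1.35 to 1.43). All 3 intervals lay between no change and 2-fold, so the differences were larger than counting error and under the size set for a call. These 3 genes lie apart on chromosome 11 (GRCm38), Acaca from 84129672 to 84401651 on the plus strand, Acly from 100476353 to 100528000 on the minus strand and Fasn from 120805846 to 120824547 on the minus strand.

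The level of Acaca carries an added limit. Of the 50-base windows of its longest annotated transcript, 52.6% recur exactly in Gm5182, a processed pseudogene on chromosome 12 whose identifier is not a row of the count table. The table sets multimapping reads apart on a line of their own, so the absolute level of Acaca is uncertain. For Acly, Fasn and Fads1 no such window recurred in another annotated transcript.

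Among the elongases the 2 genes went separate ways. Elovl1, which makes very long saturated chains used in sphingolipids, had 5370 counts with vehicle and 5244 with brequinar. Its levels of 109 and 113 CPM gave a log2 ratio of 0.06, which turned to -0.03 when libraries were scaled by total counts. Elovl6, which extends palmitate to stearate, had 243 counts with vehicle and 32 with brequinar. Its level was 4.91 and 0.689 CPM, 7.13-fold lower (interval 4.92 to 10.7), and its log2 ratio ranked 42 from the lowest of the 11504 genes tested. Within a library the ratio of 2 genes does not depend on scaling: there were 22.1 counts of Elovl1 for each count of Elovl6 with vehicle and 164 with brequinar.

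Elovl1 spans 118428093 to 118432953 on chromosome 4 (plus strand), and its exons share 53 bases with Cdc20, a mitotic gene on the opposite strand at 86.6 and 131 CPM. The sources used here do not give the strand setting of the count, so reads from that overlap cannot be assigned with certainty. Elovl6 spans 129532355 to 129638495 on chromosome 3 (plus strand). It shares 34 exonic bases with the antisense gene Gm35986, which held 2 counts with vehicle and 0 with brequinar.

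All 4 desaturase genes were lower with brequinar, whether abundant or rare. Scd2, which encodes the main stearoyl-CoA desaturase of these cells by level, had 21373 counts with vehicle and 6403 with brequinar. It stood at 432 and 138 CPM and was 3.13-fold lower (interval 3.05 to 3.22). Its paralog Scd1, the main desaturase gene of liver and fat, was rare, with 150 and 62 counts. Scd1 stood at 3.03 and 1.33 CPM and was 2.27-fold lower, with an interval (1.68 to 3.10) that reached below 2-fold. For both genes the brequinar library was the low one. The interval of Scd1 was too wide to place its ratio nearer to that of Scd2 or to that of Fasn.

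Fads1, whose product adds the double bond that completes arachidonate, had 1233 counts with vehicle and 291 with brequinar. It stood at 24.9 and 6.26 CPM and was 3.98-fold lower (interval 3.498 to 4.535). Fads2, which encodes the enzyme that begins the same pathway, had 63 and 21 counts. It stood at 1.27 and 0.452 CPM with a mean of 0.863 CPM, and was 2.82-fold lower (interval 1.70 to 4.86). The 2 Fads genes were thus of unequal abundance, with 19.6 counts of Fads1 per count of Fads2 with vehicle and 13.9 with brequinar. Of the 9 genes past the filter, Elovl6, Scd2 and Fads1 had the whole interval beyond 2-fold on the lower side, beside 2.50% of all genes tested.

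**Figure D2:**
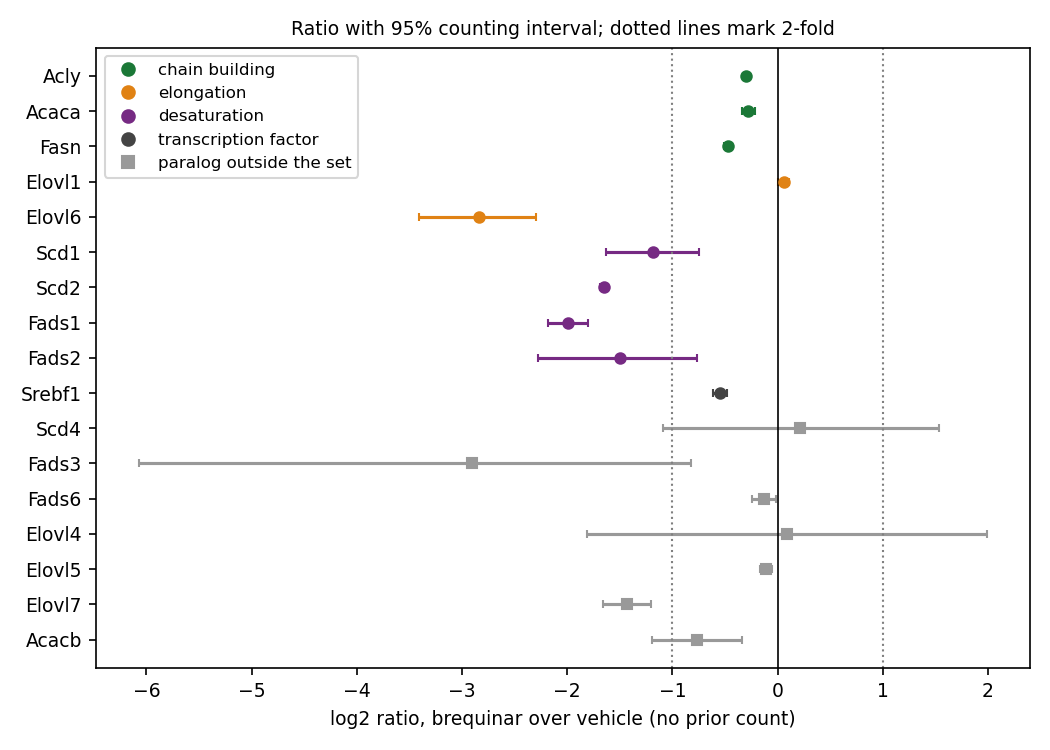
Log2 ratio of brequinar over vehicle without a prior count, with 95% counting intervals, for the 10 genes (circles, coloured by role) and for paralogs with at least 10 counts in all (grey squares). Dotted lines mark 2-fold. The 4 desaturase genes and Elovl6 lie to the left of the lower line, the intervals of Scd1 and Fads2 cross it, and Elovl7 is the grey square with a narrow interval to its left.

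Srebf1 encodes the sterol regulatory element binding protein that favours fatty acid genes. It had 4568 counts with vehicle and 2931 with brequinar. Its level was 92.3 and 63.1 CPM, 1.46-fold lower (interval 1.40 to 1.53). The gene spans 60199089 to 60222581 on chromosome 11 (minus strand), and its exons share 109 bases with Rai1 on the opposite strand, which had 1421 and 909 counts and a log2 ratio of -0.55. The ratio of Srebf1 was -0.55 as well. Counts do not separate the transcripts that start at the alternative promoters of Srebf1, so the levels are of the gene as a whole.

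The plot of all genes tested places the set by abundance. Scd2 was both abundant and far below 0, with the 584th highest mean level, while Elovl6 and Scd1 were near the filter.

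**Figure D3:**
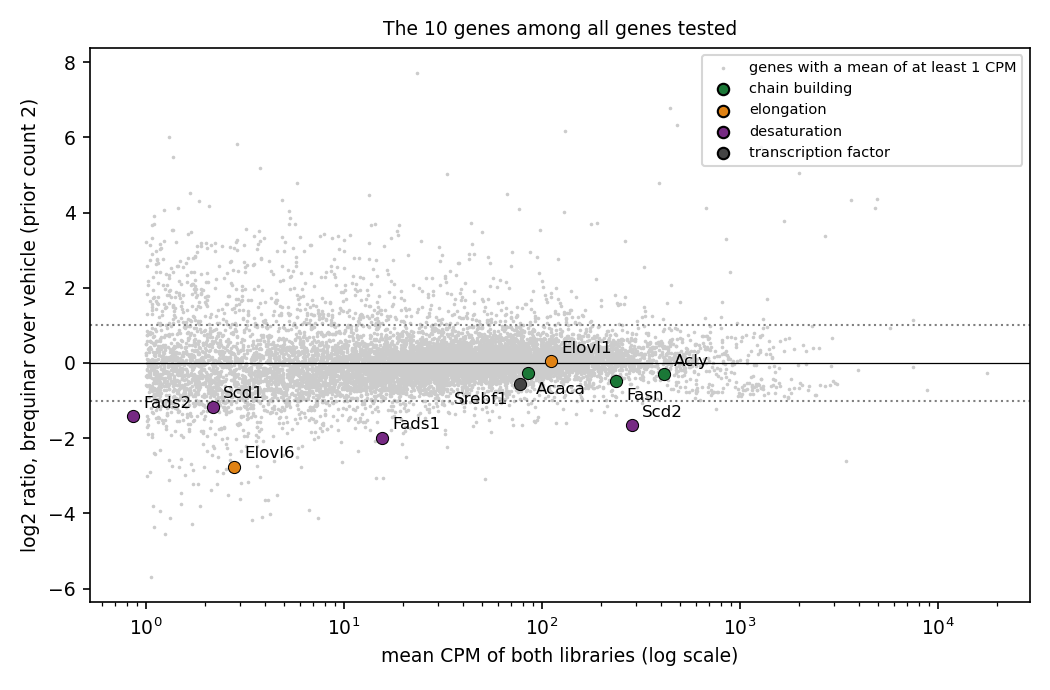
Mean CPM of both libraries (log axis) against the log2 ratio of brequinar over vehicle with a prior count of 2. Grey points are the 11504 genes tested, coloured points the 10 genes by role, and dotted lines mark 2-fold. Scd2 (-1.65), Fads1 (-1.98) and Elovl6 (-2.76) lie below the lower line and Acly (-0.30), Acaca (-0.28), Fasn (-0.47) and Srebf1 (-0.55) between it and 0.

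Levels of different genes were compared as CPM per kilobase of exon. In the vehicle library Acly (86.2 CPM per kilobase) and Scd2 (79.1) were the highest, followed by Elovl1 (39.8), Fasn (25.3), Srebf1 (16.4), Acaca (5.45) and Fads1 (5.18). The counting intervals of Acaca and Fads1 overlapped at this length. With the length of the longest transcript their levels were further apart (9.79 and 7.20), and the level of Acaca carries the limit given above. Elovl6 (0.764), Scd1 (0.620) and Fads2 (0.386) were the lowest, and the intervals of Elovl6 and Scd1 overlapped. In the brequinar library Acly (69.9) stayed first, Elovl1 (41.4) came before Scd2 (25.2), and Elovl6 (0.107) was last behind Fads2 (0.137) with overlapping intervals. The order in each library was identical with the length of the longest transcript. The 2 most expressed enzymes thus separated: there were 0.949 counts of Scd2 per count of Acly with vehicle and 0.374 with brequinar, and 1.56 and 0.693 counts of Scd2 per count of Fasn.

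Among close paralogs, 1 gene carried most of the level of Scd1 to Scd4, of Fads1 to Fads3, of Elovl1 to Elovl7 and of the acetyl-CoA carboxylase pair. Scd2 made up 99.1% of the summed level per kilobase of Scd1 to Scd4 with vehicle and 98.7% with brequinar. Scd3 had 0 counts in both libraries, which allows up to 0.0606 and 0.0646 CPM (3 counts), and Scd4 had 11 and 12 counts. Fads1 made up 91.7% and 89.8% of the level of Fads1 to Fads3. Fads3, a family member beside Fads2, had 16 counts with vehicle and 2 with brequinar (ratio of brequinar over vehicle between 0.0149 and 0.566). Fads6, a more distant member left out of that share, stood at 26.7 and 24.4 CPM, within 2-fold. Per kilobase Fads6 was below Fads1 with vehicle (4.02 and 5.18) and above it with brequinar (3.67 and 1.30). Elovl1 made up 53.9% and 58.6% of the Elovl family per kilobase, and Elovl5 made up 40.6% and 39.4%. Elovl5, which elongates polyunsaturated chains between the steps of Fads2 and Fads1, stood at 106 and 98.1 CPM. Elovl7 was lower (12.9 and 4.78 CPM), and Elovl2, Elovl3 and Elovl4 had at most 7 counts in a library. Acacb, the mitochondrial carboxylase isoform, stood at 2.67 and 1.57 CPM.

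**Figure D4:**
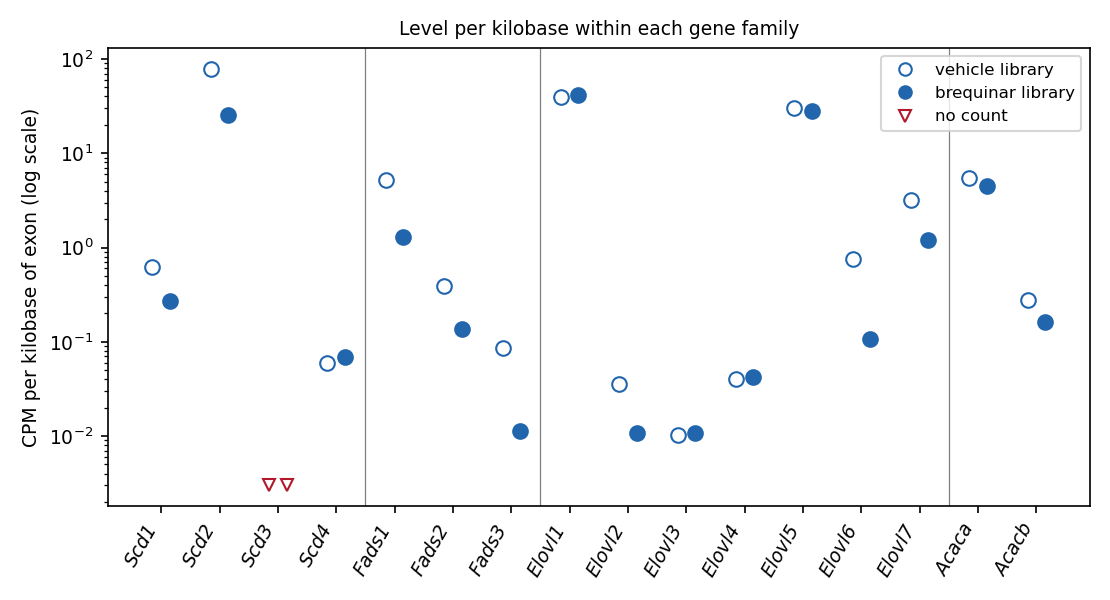
CPM per kilobase of exon (log axis) for Scd1 to Scd4, Fads1 to Fads3, Elovl1 to Elovl7 and the acetyl-CoA carboxylase pair, in the vehicle library (open) and the brequinar library (filled), with triangles for genes without a count. Scd2, Fads1, Elovl1 and Acaca are the highest of the genes plotted between the vertical lines in both libraries, and the filled circle of Scd2 lies at 25.2 against 79.1 for the open one.

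The Scd genes share sequence, which bears on how far their counts can be separated. Of the 50-base windows of the longest Scd1 transcript 4.66% recur in other annotated transcripts, most often those of Scd3, and for Scd2 the share is 4.01%, most often in Scd1. Elovl6 shares 4.59% of its windows, chiefly with the processed pseudogene Gm11295, which had 0 counts.

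Scd1, Scd2 and the Fads genes lie in 2 clusters on chromosome 19. Scd2 spans 44293674 to 44306864 (plus strand) and Scd1 44394455 to 44407879 (minus strand), with Scd4 between them. Within 100000 bases of the 2 genes lie 6 genes of the deposited counts, and Scd1 and Scd2 were the 2 that passed the filter. Fads1 spans 10182888 to 10196877 (plus strand) and Fads2 10062765 to 10101746 (minus strand). Of 12 genes of the deposited counts within 100000 bases of these, 5 passed the filter, and Fads1 was the single gene of the 5 past 2-fold. The others were Fth1, the ferritin heavy chain gene (236 and 319 CPM), Rab3il1 (1.86 and 2.88 CPM), Fen1, a replication nuclease gene beside Fads1 (130 and 139 CPM), and Tmem258 (108 and 79.1 CPM). None of these 4 reached 2-fold.

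Promoter windows of 300 bases, 250 before and 50 after an annotated start, were available from RefSeq (GRCm38.p6) for 7 of the 10 genes, with 10 windows in all. No window was found for Scd1, Scd2 and Fads1. They were searched on both strands for TCACNCCAC, the consensus bound by the Srebf1 and Srebf2 products, for CCAAT, the box bound by their partner NF-Y, and for CACGTG, an E-box. The first was in none of the 10 windows and in 1.24% of 32851 windows of all genes. CCAAT was in 5 of the 10 and in 37.4% of all, and CACGTG in none and in 7.15%. Matches describe these letters in these windows and name no site. The windows of Elovl6 and Fads2, both low in the brequinar library, are set beside those of Fasn and Elovl1, which were within 2-fold. Capitals mark CCAAT or its reverse complement, and each run reads 5′ to 3′ along the gene.
Elovl6 (chr3:129532136-129532435, plus strand): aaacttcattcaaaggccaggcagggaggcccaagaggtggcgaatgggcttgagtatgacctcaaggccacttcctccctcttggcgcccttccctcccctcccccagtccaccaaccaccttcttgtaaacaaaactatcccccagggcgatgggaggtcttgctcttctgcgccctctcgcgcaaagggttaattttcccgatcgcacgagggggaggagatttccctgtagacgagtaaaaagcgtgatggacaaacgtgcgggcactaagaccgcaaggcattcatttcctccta
Fads2 (chr19:10101454-10101753, minus strand): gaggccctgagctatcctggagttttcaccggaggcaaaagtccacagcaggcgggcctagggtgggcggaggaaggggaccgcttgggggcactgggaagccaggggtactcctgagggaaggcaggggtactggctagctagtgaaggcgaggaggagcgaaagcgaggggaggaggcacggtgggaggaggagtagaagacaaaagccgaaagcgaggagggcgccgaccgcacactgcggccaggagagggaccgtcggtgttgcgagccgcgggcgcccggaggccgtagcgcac
Fasn (chr11:120824498-120824797, minus strand): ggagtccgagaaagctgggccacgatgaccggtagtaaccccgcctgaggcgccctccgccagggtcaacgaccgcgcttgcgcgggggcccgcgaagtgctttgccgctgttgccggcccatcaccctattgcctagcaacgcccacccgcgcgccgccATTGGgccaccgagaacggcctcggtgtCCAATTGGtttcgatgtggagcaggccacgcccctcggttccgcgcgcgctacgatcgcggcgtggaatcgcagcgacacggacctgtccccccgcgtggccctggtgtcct
Elovl1 (chr4:118427843-118428142, plus strand): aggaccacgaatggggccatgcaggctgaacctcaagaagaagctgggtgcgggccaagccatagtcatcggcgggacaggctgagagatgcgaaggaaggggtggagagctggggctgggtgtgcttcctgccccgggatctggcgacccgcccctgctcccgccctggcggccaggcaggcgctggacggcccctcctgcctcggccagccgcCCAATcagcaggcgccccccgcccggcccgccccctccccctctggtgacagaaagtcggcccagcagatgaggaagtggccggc

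The Fasn window held 3 matches to CCAAT, beginning 90, 62 and 59 bases before the start, of which the last 2 overlap on opposite strands. The Elovl1 window held 1, at 35 bases before the start, and those of Elovl6 and Fads2 held none. The other Elovl1 window, that of Acaca and the Srebf1 window from 60220578 to 60220877 held none either, and these genes were within 2-fold. The Acaca window, which begins at 84195188, lies inside the annotated span of the gene. No contrast between low and other genes is read from the windows.

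Genes that supply or assist the 10 were read from lists of related genes, and each list is given beside the median of 0.00 and the shares of 6.45% higher and 4.40% lower over all genes tested. Of 10 genes for acetyl-CoA, NADPH and malonyl-CoA supply 8 passed the filter, with 1 higher and 1 lower, and a median log2 ratio of -0.14 that ranged from -0.23 to 0.04 over the alternatives tried. G6pdx, which makes NADPH in the pentose phosphate pathway, was higher (173 and 480.3 CPM). Slc25a1, the mitochondrial citrate carrier that feeds Acly, was lower (53.7 and 25.6 CPM; log2 ratio -1.07, and -0.93 after the length and GC correction, which ends the call). Of 8 measured genes among other elongases and the elongation cycle, 2 were higher and 1 lower (median 0.05, range -0.04 to 0.24). Hacd4 (9.05 and 43.2 CPM) and Hacd2 (58.0 and 134 CPM), which encode dehydratases of the cycle, were higher, and Elovl7 was lower. Of 6 measured genes among other desaturases and their electron supply (median -0.18, range -0.27 to 0.17) 1 was higher, Degs1, the ceramide desaturase gene (52.1 and 159 CPM). Cyb5r3, the reductase that passes electrons towards Scd and Fads enzymes, stood at 88.0 and 69.5 CPM, and Cyb5r1 at 27.3 and 36.6 CPM. None of 9 measured genes of mitochondrial fatty acid synthesis passed 2-fold (median -0.17), with Mcat at 17.6 and 12.7 CPM and Lipt2 at 9.88 and 7.25 CPM.

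Genes that control the pathway showed 1 higher and 1 lower of 12 measured (median -0.09). Insig1, whose product holds Scap in the endoplasmic reticulum and which is itself a target of the Srebf factors, was lower (79.7 and 33.0 CPM), and Nr1h3, which encodes LXR alpha, was higher at a low level (38 and 105 counts; 0.768 and 2.26 CPM). Srebf2, which favours cholesterol genes, stood at 212 and 140 CPM with a log2 ratio of -0.60, close to the -0.55 of Srebf1. Scap, the escort protein of both, stood at 64.5 and 51.8 CPM, Insig2 at 11.8 and 13.7 CPM and Nr1h2, the LXR beta gene, at 101 and 85.6 CPM. Mlxipl, which encodes the carbohydrate-responsive factor ChREBP, had 13 and 5 counts.

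Genes of cholesterol synthesis and uptake, the other main targets of the Srebf factors, had a median log2 ratio of -0.93 with 8 of 21 measured genes called lower and none higher. Sqle, the squalene epoxidase gene, stood at 69.4 and 23.2 CPM, and Cyp51, which encodes a sterol demethylase, at 79.8 and 28.0 CPM. The log2 ratio of Cyp51 was -1.51 and that of Scd2 -1.65. No difference between the 2 sets was tested.

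**Figure D5:**
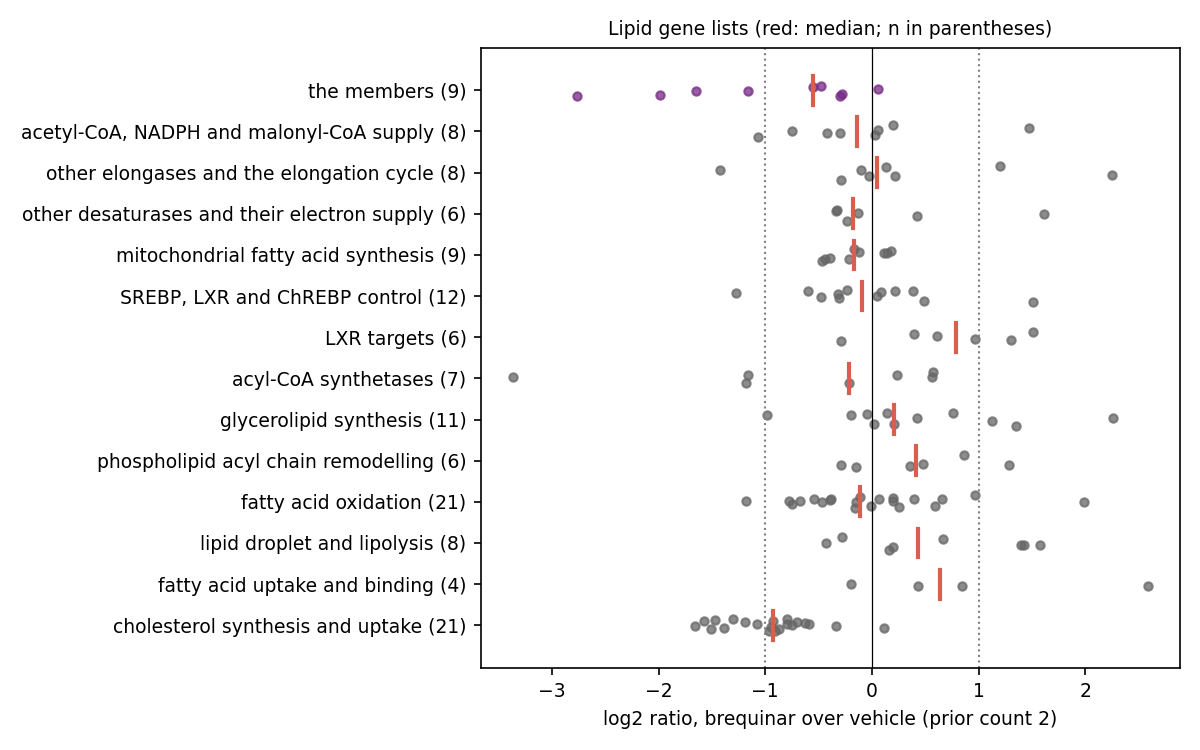
Log2 ratio of brequinar over vehicle (prior count 2) for each gene with a mean of at least 1 CPM, in the set of 10 (purple, 9 genes shown) and in 13 lists of related lipid genes (grey), with medians in red and dotted lines at 2-fold. The cholesterol list (median -0.93) and the set (median -0.55) lie to the left of 0. Furthest to the right lie LXR targets (0.79), fatty acid uptake and binding (0.64), lipid droplet genes (0.43) and phospholipid remodelling (0.42).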

How the data were processed

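The authors deposited whole-number counts of reads per Ensembl gene, not normalised, for 1 vehicle and 1 brequinar library. Per the labels' protocols, poly(A)-selected, strand-preserving libraries were read as paired ends. Per the submitters' processing notes, reads were handled against mm10 with tools that include Picard (1.99, 2.2.4) and STAR (2.4.2a). Which program counted the reads, with which strand setting and annotation, is not given in the sources used here. Columns were matched to samples by name.

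The 4 lines that name no gene held 21.6% and 20.2% of reads in the vehicle and brequinar libraries (7.39% and 6.92% multimapping) and stayed out of library sizes. Symbols, positions and exon lengths came from GENCODE M21 (GRCm38), which gave a symbol for 44671 of 45318 identifiers. 1 listed gene was found through a RefSeq synonym.

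Libraries were scaled in R 4.3.3 by the TMM method of edgeR 4.0.16 (factors 1.03 and 0.969). Intervals of ratios are Clopper-Pearson at 95%, conditional on the summed count, and intervals of levels are exact Poisson. With 1 library per group no test across genes between treatments was possible, and a gene was called at 2-fold. Figures were drawn with matplotlib 3.10.9, and tables and intervals were made in scipy 1.17.1, pandas 2.3.3, statsmodels 0.14.6 and numpy 2.4.6 under Python 3.11.15. On simulated counts with counting error alone, 100 of 100 genes changed 4-fold were called, 0 of 100 changed 1.5-fold were, and 95.3% of intervals held the true ratio. The changed genes were drawn from those with a mean of at least 5 CPM. Elovl6, Scd1 and Fads2 lie below that level, so the recovery does not cover them.

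The members, 13 lipid gene lists, 7 marker lists and alternatives were chosen with earlier results of these data known. Named genes were the members, their paralogs, the neighbours and regulators given, and, from each list, at least the 2 genes whose log2 ratio was furthest from 0, except 1 gene that is not reported here. Alternatives were scaling by total counts, by the upper quartile or by size factors of DESeq2 1.42.0, other filters, prior counts and folds, and a lowess correction (span 0.3) for transcript length and GC content.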

Additional observations from a re-analysis of the deposited data

How the results depend on the processing

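The genes of the set called lower numbered 4 under every scaling and prior count tried, with the length and GC correction and at a 1.5-fold threshold. They numbered 5 without a filter, 3 where the whole counting interval had to lie beyond 2-fold, and 2 at a minimum of 5 CPM, where Elovl6 and Scd1 did not enter. None of the set was called higher under any alternative. The median log2 ratio of -0.55 was -0.64 with total counts, -0.85 without a filter, -0.47 at a minimum of 5 CPM and -1.01 when the mean was taken. Over all genes, 742 higher and 506 lower became 2470 and 2074 without a filter, 457 and 230 at that minimum, and 1456 and 1463 at 1.5-fold, and 288 lower genes had the whole interval beyond 2-fold. Among the log2 ratios of the 10 genes, that of Elovl1 was the one whose sign turned (-0.03 to 0.15). Scd2 ranged from -1.74 to -1.65, Fads1 from -2.08 to -1.95, Elovl6 from -2.87 to -2.66 and Scd1 from -1.25 to -1.12. Acly ranged from -0.40 to -0.28, Acaca from -0.37 to -0.27, Fasn from -0.57 to -0.40 and Srebf1 from -0.64 to -0.49. Fads2 did not enter the length and GC correction. No paired analysis was possible because each group is 1 library, and for the same reason no library could be left out. Depth limits Fads2, Scd1 and Elovl6, whose counts in the brequinar library were 21, 62 and 32.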

Other observations

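Counts called in this section stand beside shares of 6.45% higher and 4.40% lower over all genes tested. Nothing is read from a single call in a short list. Of 8 measured genes of lipid droplets and lipolysis 3 were called higher with brequinar and none lower (median log2 ratio 0.43, range 0.18 to 0.59). Plin2, which coats lipid droplets, stood at 124 and 370.2 CPM, and G0s2, an inhibitor of triglyceride lipolysis, at 11.6 and 31.2 CPM. Abhd5, which activates the same lipase, stood at 77.2 and 204 CPM. Of 11 measured genes of glycerolipid synthesis 3 were higher and none lower (median 0.20), with Agpat4 at 0.829 and 4.13 CPM, and Dgat1 and Dgat2, whose products make triglyceride, at 39.4 and 100.4 CPM and at 30.2 and 65.9 CPM. Fatty acid oxidation had 1 higher and 1 lower of 21 measured genes (median -0.11): Cpt1a, which admits fatty acids to the mitochondrion, stood at 47.4 and 188 CPM, and Ehhadh, a peroxisomal enzyme gene, at 4.16 and 1.81 CPM.

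Among acyl-CoA synthetases 3 of 7 were lower and none higher (median -0.21, and 0.23 at a minimum of 5 CPM). They were led by Slc27a2, a transport and very long chain synthetase gene (3.94 and 0.344 CPM), and Acsl3 (16.3 and 7.15 CPM). LXR targets had 2 of 6 measured genes higher and none lower (median 0.79, range 0.61 to 1.14), Nr1h3 (0.768 and 2.26 CPM) and the ubiquitin ligase gene Mylip (8.87 and 22.0 CPM). Nr1h3 is on 2 lists and is also the 1 gene called higher among those that control the pathway. Of 4 measured genes of uptake and binding (median 0.64, range 0.12 to 0.92) 1 was higher, the scavenger receptor gene Cd36 (0.384 and 2.52 CPM). Lpl stood at 3.33 and 6.01 CPM. Of 6 of phospholipid remodelling (median 0.42, range 0.32 to 0.47) 1 was higher, Lpcat2 (33.99 and 82.73 CPM), with Lpcat4 at 6.73 and 12.3 CPM. Of 10 macrophage markers 8 were called higher in the same library, among them C1qc (0.9498 and 9.149 CPM), while Vcam1 and Adgre1 were within 2-fold, and their part in these values was not tested. B cell markers summed to 31.5 and 16.8 CPM, where Cd79b was lower (26.2 and 9.86 CPM) and Cd79a stood at 127 and 168 counts. Stromal and endothelial markers summed to 9.22 and 5.53 CPM, where Pdgfrb was lower (6.93 and 2.50 CPM) and Col1a1 stood at 16 and 47 counts and Lepr at 4 and 31.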
